A study of Mus musculus with 6 samples.

Results

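The adult globin genes Hba-a1, Hba-a2, Hbb-bs and Hbb-bt and the erythroid gene Alas2 were examined in skeletal muscle of FLExDUX4 mice and their wild-type littermates. These 5 genes were chosen by symbol among the 52550 mouse genes of the deposited table, and all 5 were found. The FLExDUX4 group held 3 male mice, 13 weeks old, hemizygous for an inverted human DUX4 transgene that sits at the Rosa26 locus between lox sites and leaks at a low level without a Cre. The WT group held 3 male littermates of the same age without the transgene. The labels give quadriceps as the muscle, whereas the methods of the study give triceps and a younger age. The human transgene itself was not analysed here.

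Hemoglobin carries oxygen as a tetramer of alpha and beta chains, each of which holds a heme. In the adult mouse the alpha chains come from Hba-a1 and Hba-a2 and the beta chains from Hbb-bs and Hbb-bt. Alas2 encodes the erythroid form of 5-aminolevulinate synthase, which catalyses the first step of heme synthesis in red cell precursors. Mature mouse red cells have no nucleus, and reticulocytes, the young red cells in the circulation, still hold globin mRNA. A muscle that was not perfused keeps blood in its vessels, so globin mRNA in a muscle extract is commonly read as a measure of blood content.

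The 3′ ends of polyadenylated transcripts were sequenced with QuantSeq, an assay in which each transcript gives about 1 read whatever its length, so counts of different genes were compared without a correction for length. For each gene the deposited table gives 1 count per genotype, summed over its 3 mice. The totals on genes were 13110125 counts for FLExDUX4 mice and 18367364 for WT mice. The totals were scaled with TMM, a method that sets the bulk of the genes at no difference, and compared as the log2 ratio of FLExDUX4 to WT over 13396 genes. Intervals are 95% counting intervals. They leave out the spread between mice, which was not available from totals, so no test across replicates was run and a single mouse can decide a ratio. Levels are TMM-scaled CPM, that is, counts per 1000000 counts of the scaled total. All 8 muscle fiber markers were detected, and Acta1, the skeletal actin gene, stood at 35944 CPM in FLExDUX4 mice and 34707 CPM in WT mice.

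The alpha pair and the beta pair are near-identical copies, and their sequences show how far reads could be assigned to each copy. The coding sequences of Hba-a1 and Hba-a2 (426 bases) differed at 1 position in GENCODE M21 transcripts on GRCm38, C381T, counted from the first base of the start codon and given with the Hba-a1 base first. The coding sequences of Hbb-bs and Hbb-bt (441 bases without the stop codon) also differed at 1 position, C417T, with the Hbb-bs base first. The 30 coding bases around each position are printed here with the differing base in capitals. They lie in the last coding exon, at chr11:32284328-32284357 (Hba-a1, plus strand), chr11:32297145-32297174 (Hba-a2, plus strand), chr7:103826678-103826707 (Hbb-bs, minus strand) and chr7:103812669-103812698 (Hbb-bt, minus strand).
Hba-a1: gcatgcctctctggaCaaattccttgcctc
Hba-a2: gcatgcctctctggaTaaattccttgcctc
Hbb-bs: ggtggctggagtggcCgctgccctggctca
Hbb-bt: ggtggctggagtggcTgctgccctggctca

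Windows of 75 bases, the read length of the sequencing kit, were compared between transcripts. Of the windows in the last 300 bases of the annotated transcript, 66.8% for Hba-a1 and 59.7% for Hba-a2 were identical in the partner gene. For Hbb-bs and Hbb-bt the shares were 29.6% and 29.2%, and Alas2 shared no window with another gene. A read from a shared window cannot be told apart between the copies, and how the authors counted such reads is not given in the sources used here. The values of single globin genes are therefore less certain than the alpha sum, the beta sum and the sum of all 4, and even these sums leave out shared reads if such reads were dropped.

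The promoters of the members are shown as a description of the genes, and their part in the ratios was not tested. The 100 bases before the RefSeq start site (GRCm38.p6) were searched on either strand for CCAAT, for CACCC, for TATAA and for AGATAA, a site of the GATA factors. Matches are in capitals and did not overlap, and a match on the other strand appears as its reverse complement. GENCODE starts these genes earlier than RefSeq, so that the Hba-a1 and Hbb-bs windows lie inside the GENCODE gene and the others in part. The windows lie at chr11:32283572-32283671 (Hba-a1, plus strand), chr11:32296392-32296491 (Hba-a2, plus strand), chr7:103827929-103828028 (Hbb-bs, minus strand), chr7:103813924-103814023 (Hbb-bt, minus strand) and chrX:150547317-150547416 (Alas2, plus strand).
Hba-a1: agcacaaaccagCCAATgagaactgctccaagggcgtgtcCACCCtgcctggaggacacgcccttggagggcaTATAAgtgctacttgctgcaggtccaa
Hba-a2: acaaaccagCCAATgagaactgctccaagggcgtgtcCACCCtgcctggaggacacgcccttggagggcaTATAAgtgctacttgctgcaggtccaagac
Hbb-bs: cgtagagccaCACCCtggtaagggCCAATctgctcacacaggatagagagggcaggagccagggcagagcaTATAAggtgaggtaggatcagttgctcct
Hbb-bt: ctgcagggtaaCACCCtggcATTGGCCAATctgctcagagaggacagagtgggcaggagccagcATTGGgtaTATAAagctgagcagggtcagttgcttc
Alas2: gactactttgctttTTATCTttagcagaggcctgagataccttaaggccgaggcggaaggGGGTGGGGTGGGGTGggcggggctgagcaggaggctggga

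All 5 windows held CACCC, which was in 27.2% of 32851 promoter windows of this length. The 4 globin windows also held CCAAT (18.9% of all windows) and TATAA (10.2%). The Alas2 window held neither of these, but held AGATAA, which was in 3.59% of all windows and in none of the globin windows. The alpha windows were identical over their 97 aligned bases, and the beta windows matched at 73 of 99. A match describes letters in the window and does not show that a factor is bound there.

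The 4 globins together had 16472 counts in FLExDUX4 mice and 18797 in WT mice, or 1269.5 and 1013 CPM. Of all gene counts, they took 0.126% (Clopper-Pearson interval 0.124% to 0.128%) in FLExDUX4 mice and 0.102% (interval 0.101% to 0.104%) in WT mice. The FLExDUX4 level was 1.253 times the WT level, a log2 ratio of 0.33 (interval 0.30 to 0.36), which became 0.05 under scaling by spike-in RNAs and -0.015 under scaling to the adipocyte list. In a bulk sample, more red cells and more globin mRNA per red cell cannot be told apart.

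Each of the 5 members was higher in FLExDUX4 mice by TMM-scaled totals, with counting intervals above 0. With spike-in scaling Hba-a1 turned below 0, the interval of Hbb-bs alone stayed above 0 (0.043 to 0.123), and those of the other 4 held 0. Under that scaling 7.59% of all genes tested had an interval above 0. Scaled to the adipocyte list, Hba-a1, Hba-a2 and Hbb-bt lay below 0. Under TMM, 20.5% of all genes tested had a counting interval above 0 and 20.6% had one below 0. Of the 2727 genes with at least 1000 summed counts, 24.2% had an interval above 0 and 24.8% had one below 0. None of the 5 was at least 1.5-fold higher, a size reached by 13.2% of all genes tested and by 0.843% of the genes with at least 1000 counts. At a lower limit, 0.32 on the log2 scale, 3 of the 5 were past it (Hba-a2, Hbb-bs and Alas2), as were 22.6% of all genes tested.

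**Figure D1:**
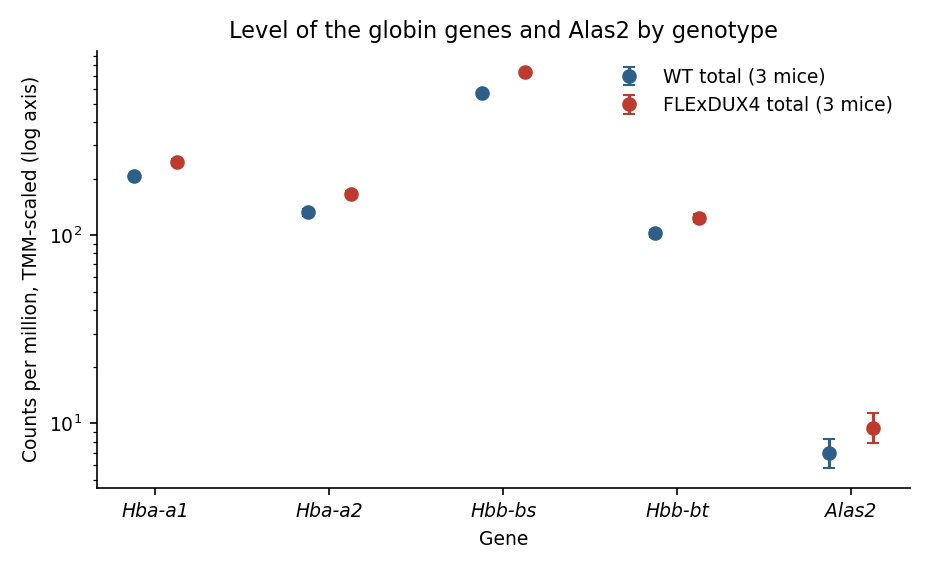
Level of the globin genes and Alas2 in CPM (TMM-scaled, log axis) in the WT total (blue) and the FLExDUX4 total (red), each summed over 3 mice. Points are the totals and bars the 95% counting interval, which is hidden by most points. Hbb-bs is the highest gene (573 in WT, 735 in FLExDUX4) and Alas2 the lowest (6.95 and 9.48), and each FLExDUX4 point lies above its WT point on this scaling, an order that turns for Hba-a1 with spike-in scaling and for Hba-a1, Hba-a2 and Hbb-bt with scaling to the adipocyte list.

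The alpha globin genes lie on chromosome 11 of GRCm38, Hba-a1 at chr11:32283511-32284465 and Hba-a2 at chr11:32296489-32297298, both on the plus strand. Hba-a1 had 3182 counts in FLExDUX4 mice and 3815 in WT mice, or 245 and 206 CPM. Its log2 ratio was 0.25 (interval 0.19 to 0.32), the smallest of the 5, and -0.02 with spike-in scaling. Hba-a2 had 2150 counts against 2453, or 166 against 132 CPM, and a log2 ratio of 0.33 (interval 0.24 to 0.41). The intervals of the alpha genes overlapped. Their summed level was 1.22 times as high in FLExDUX4 mice, with a log2 ratio of 0.28 (interval 0.23 to 0.34).

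The beta globin genes lie on the minus strand of chromosome 7, Hbb-bs at chr7:103826534-103828096 and Hbb-bt at chr7:103812524-103813996. Hbb-bs had 9530 counts in FLExDUX4 mice and 10628 in WT mice, which placed it at rank 90 of all genes in the FLExDUX4 total and at rank 110 in the WT total. Its log2 ratio was 0.36 (interval 0.32 to 0.40). Hbb-bt had 1610 counts against 1901, or 124 against 102 CPM, and a log2 ratio of 0.28 (interval 0.18 to 0.37). The summed beta level was 1.27 times as high in FLExDUX4 mice, with a log2 ratio of 0.35 (interval 0.31 to 0.38) that overlapped the alpha interval.

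The order of levels was the same in both totals, with Hbb-bs first, then Hba-a1, Hba-a2, Hbb-bt and Alas2, and the counting intervals of neighbours in that order did not overlap. The make-up of the globin counts, which needs no scaling between genotypes, was close in the 2 totals. Beta genes made up 67.6% of globin counts (interval 66.9% to 68.3%) in FLExDUX4 mice and 66.7% (interval 66.0% to 67.3%) in WT mice. Hba-a1 took 59.7% of alpha counts (interval 58.3% to 61.0%) in FLExDUX4 mice and 60.9% (interval 59.6% to 62.1%) in WT mice. Hbb-bs took 85.5% of beta counts (interval 84.9% to 86.2%) in FLExDUX4 mice and 84.8% (interval 84.2% to 85.5%) in WT mice. The intervals of the 2 genotypes overlapped for each of these 3 shares, and the differences themselves were not tested. The shares describe counted reads, and reads lost from shared windows could move them away from the shares of transcripts, more so for the alpha pair.

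**Figure D2:**
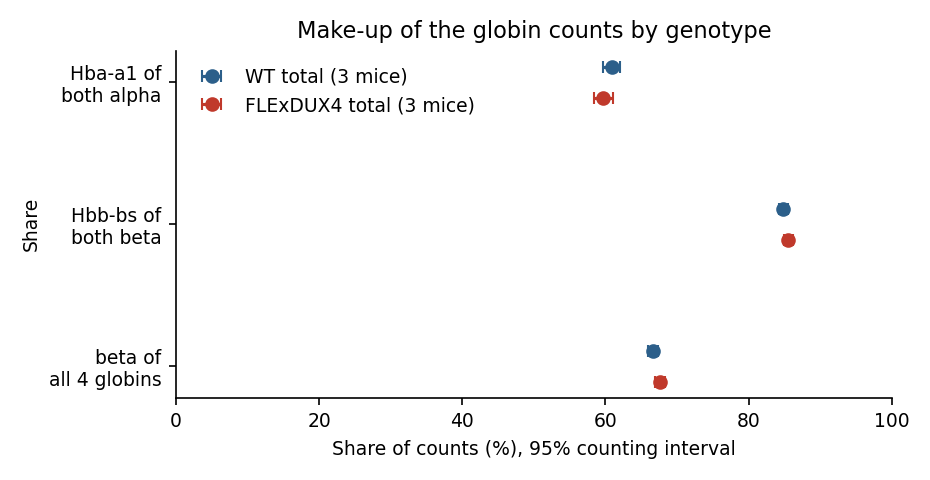
Share of counts in percent for Hba-a1 among both alpha genes, Hbb-bs among both beta genes and beta among all 4 globins, in the WT total (blue) and the FLExDUX4 total (red), each summed over 3 mice. Bars are 95% Clopper-Pearson intervals, and the intervals of the genotypes overlap in each of the 3 shares (59.7% and 60.9%, 85.5% and 84.8%, 67.6% and 66.7%).

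Alas2 lies on chromosome X (chrX:150547375-150570638, plus strand). It had 123 counts in FLExDUX4 mice and 129 in WT mice, or 9.48 and 6.95 CPM, and a log2 ratio of 0.45. With so few counts its interval, 0.08 to 0.82, held the ratios of all 4 globins. Alas1, the form of the same enzyme in other tissues, was far more abundant, with 1124 counts against 1561, and its log2 ratio was 0.04 (interval -0.07 to 0.15). Alas2 made up 9.86% (interval 8.26% to 11.7%) of the counts of the 2 synthase genes in FLExDUX4 mice and 7.63% (interval 6.41% to 9.004%) in WT mice. These intervals overlap.

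The heme pathway did not stand higher as a group. Of its 9 genes, all tested and Alas2 among them, 3 had a log2 ratio above 0 and 6 below, with a median of -0.27 against -0.001 over all genes tested. Their summed level was 237 CPM in FLExDUX4 mice and 238 CPM in WT mice, with counting intervals above 0 for 2 genes and below 0 for 2, near the 20.5% and 20.6% of all genes tested. Fech, which encodes ferrochelatase and puts the iron into heme, had a log2 ratio of 0.22 (interval 0.10 to 0.35), which was -0.05 with spike-in scaling. Cpox, the coproporphyrinogen oxidase gene, had the lowest ratio, -0.41 (interval -0.63 to -0.20), from 263 and 501 counts. Urod, which acts just before it, had a ratio of -0.24 (interval -0.44 to -0.03). The intervals of Alad, Uros and Ppox, which had between 27 and 188 counts in a total, held 0.

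No count of the embryonic globins Hba-x, Hbb-y, Hbb-bh1 and Hbb-bh2 or of the theta globins Hbq1a and Hbq1b was found in either total, which allows a level of up to 0.231 CPM in FLExDUX4 mice and 0.162 CPM in WT mice at 3 counts. Mb, the oxygen-binding myoglobin of muscle fibers, had 24079 counts against 34467. Its log2 ratio was -0.001 (interval -0.02 to 0.02), so the globins were 1.254 times as high relative to Mb in FLExDUX4 mice. Cygb, the cytoglobin gene, had a ratio of -0.19 (interval -0.37 to -0.0046). No count was found for Ngb, the globin of neurons.

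Genes that mark red cells beside the globins gave little signal. Of 14 genes of the red cell membrane and its skeleton, 4 had no count in either total (Epb42, Rhd, Kel and Cldn13). Slc4a1, the anion exchanger of the red cell, and Rhag had 0 counts in FLExDUX4 mice and 6 in WT mice each, and Ermap had 0 and 1. These genes are given as defining markers after their values were seen. The 5 genes tested had a median log2 ratio of -0.13, 1 above 0 and 4 below. The 1 above was Tspan33, at 1.82 (interval 0.55 to 3.38, and a ratio of 1.54 with spike-in scaling) from 18 and 7 counts. Intervals lay above 0 for 1 gene and below 0 for 3, beside 20.5% and 20.6% of all genes tested. The genes of this list with most counts were Ank1, Sptb and Epb41, which encode ankyrin, spectrin and protein 4.1 and are also made in muscle fibers. Their log2 ratios were -0.20 (interval -0.24 to -0.16), -0.13 (interval -0.23 to -0.03) and -0.16 (interval -0.27 to -0.04). The summed level of the 14 genes was 789 CPM in FLExDUX4 mice and 897 CPM in WT mice, of which Ank1, Sptb and Epb41 made up 98.9% and 99.0%, so the sum says little of red cells.

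Of 15 late erythroid and reticulocyte genes, 10 were tested, 5 with a ratio above 0 and 5 below, and the median was -0.04. Trim10, Trim58 and Hemgn had no count in either total, and Car1, a red cell carbonic anhydrase gene under the count filter, had 0 counts against 9, with an interval whose upper bound was -0.46. Bpgm, which makes 2,3-bisphosphoglycerate in red cells, had a log2 ratio of 0.01 (interval -0.13 to 0.14), Prdx2 of -0.08 (interval -0.20 to 0.04) and Bnip3l of -0.10 (interval -0.36 to 0.15). Slc25a37, the mitochondrial iron importer mitoferrin 1, had a ratio of -0.16 (interval -0.42 to 0.10) and Mkrn1 of 0.20 (interval -0.11 to 0.51). Ube2o, a ubiquitin ligase of reticulocyte maturation, was higher, with a ratio of 0.32 (interval 0.05 to 0.59). The highest ratio was that of Fam46c, 1.58 (interval 1.08 to 2.12) from 101 and 48 counts. Car2, the carbonic anhydrase 2 gene, was the only tested gene of the list with an interval below 0, against 2 with an interval above 0 (Ube2o and Fam46c), and 20.6% and 20.5% of all genes tested. Its ratio lay at -0.54 (interval -0.95 to -0.15), and had 79 counts against 165. Both were named after their values were seen.

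Of 9 erythroid transcription factor genes, 4 were tested, 3 with a ratio above 0 and 1 below, and the median was 0.06, or -0.22 with spike-in scaling and 0.43 with no filter on low counts. The factor genes Gata1, Nfe2 and Gfi1b had no count in either total, and Klf1 had 4 counts against 0. Sox6, which also acts in muscle fibers, had 2699 counts against 3619 and a log2 ratio of 0.09 (interval 0.02 to 0.17), which was -0.18 with spike-in scaling. Zfpm1, the GATA1 partner FOG1, had a ratio of 0.79 (interval 0.31 to 1.29). Tal1 had 1 count in FLExDUX4 mice and 36 in WT mice, and a ratio of -4.09 with a wide interval whose upper bound was -2.08. Both were named after their values were seen. Epor, the erythropoietin receptor gene, had 1 count against 4. Tfrc, the transferrin receptor gene, had a ratio of -0.05 (interval -0.18 to 0.07).

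Genes that dispose of hemoglobin and heme went both ways, 4 above 0 and 4 below among the 8 tested, with a median log2 ratio of 0.19 that turned to -0.088 with spike-in scaling and to -0.040 with no filter on low counts. Cd163, the macrophage receptor for the hemoglobin-haptoglobin complex, had 165 counts against 125, and its ratio of 0.92 (interval 0.57 to 1.26) was past 1.5-fold. Hp, the haptoglobin gene, had a ratio of 0.41 (interval 0.06 to 0.75), and Abcg2, a porphyrin exporter, of 0.44 (interval 0.24 to 0.64). These 3 ratios stayed above 0 with spike-in scaling, at 0.64, 0.13 and 0.17. Hmox1, the inducible heme oxygenase gene, had 36 counts against 31 and was also past 1.5-fold, at 0.73 on the log2 scale (0.45 with spike-in scaling), but its interval of -0.0015 to 1.47 held 0. Blvrb, the biliverdin reductase B gene, named like Hmox1 after its value was seen, had 74 counts against 153, and its ratio of -0.53 (interval -0.95 to -0.12) lay below 0. Of the 8 genes, 3 had an interval above 0 and 1 below, beside 20.5% and 20.6% of all genes tested. At least 1.5-fold higher were 2 of the 8, beside 13.2% of all genes tested. Hmox2, the constitutive heme oxygenase gene, had a ratio of -0.15 (interval -0.37 to 0.06), Blvra (biliverdin reductase A) of -0.19 (interval -0.58 to 0.18) and Slc48a1, a heme transporter gene, of -0.03 (interval -0.16 to 0.10). The members of this list are made by macrophages, fat and vessels as well, and which cells gave these counts was not tested.

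The 25 genes with the most counts in the globin, heme and erythroid lists, the members and the lists of other blood cells left out, had a median log2 ratio of -0.08. Several of them, such as Mb, Ank1, Sox6, Sptb and Epb41, are also made in muscle fibers, so the set does not stand for blood alone. Of these, 9 lay above 0 and 16 below, with counting intervals above 0 for 6 and below 0 for 6, near the 20.5% and 20.6% of all genes tested, and with spike-in scaling 4 lay above 0.

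**Figure D3:**
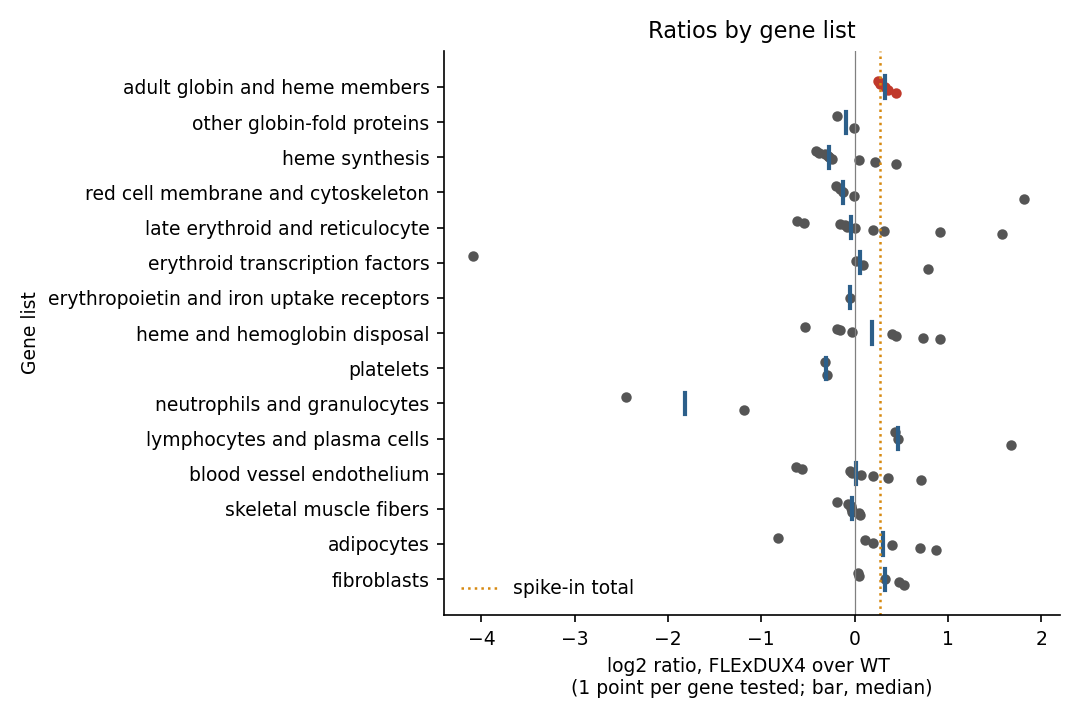
Log2 ratio of FLExDUX4 to WT (horizontal axis) for each tested gene of 15 gene lists (vertical axis). Points are genes, red for the globins and Alas2, blue bars are list medians, and the dotted line is the ratio of the spike-in total (0.28). The members lie between 0.25 and 0.45 around that line, while heme synthesis has a median of -0.27 and the neutrophil genes lie at -2.45 and -1.19.

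Markers of other blood cells differed in direction. Of 8 neutrophil genes only S100a9 and S100a8, which encode calprotectin, were tested. S100a9 had 13 counts in FLExDUX4 mice and 105 in WT mice, which gave a log2 ratio of -2.45 (interval -3.45 to -1.66). For S100a8 there were 11 against 37 counts, with a ratio of -1.19 (interval -2.35 to -0.23). The summed neutrophil level was 2.16 CPM against 9.21 CPM. Of 8 platelet genes, Pf4 (platelet factor 4) had a ratio of -0.32 (interval -0.57 to -0.07), Itga2b had 14 counts against 25, and Gp1bb, Gp1ba and Tubb1 had no count in either total. The 3 lymphocyte and leukocyte genes tested lay above 0, with a median of 0.47. Among them, Cd74 had a ratio of 0.47 (interval 0.20 to 0.74) and Ptprc (CD45) of 0.43 (interval -0.08 to 0.94), while Cd79a and Cd3g had no count in either total.

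Vessel genes went both ways, 4 above 0 and 4 below. The 8 endothelial genes had a median log2 ratio of 0.02, which spike-in scaling turned to -0.26, and a summed level of 312 CPM in FLExDUX4 mice and 315 CPM in WT mice. Flt1, a receptor of vascular endothelial growth factor, had a ratio of 0.20 (interval 0.09 to 0.30) that spike-in scaling turned to -0.08, and Kdr, the other main receptor, of -0.56 (interval -0.70 to -0.42). Vwf (von Willebrand factor) at 0.71 (interval 0.44 to 0.99) and Tek, the TIE2 receptor gene, at -0.63 (interval -1.04 to -0.25) were the extremes of the list and were named after their values were seen. The 8 muscle fiber genes had a median of -0.03. Acta1 had a ratio of 0.05 (interval 0.05 to 0.06) that spike-in scaling turned to -0.23, and Myh4, the type IIb myosin gene, of -0.07 (interval -0.07 to -0.06). Fibroblast and fat genes had medians near the globin ratio, 0.33 over 5 fibroblast genes and 0.30 over 6 adipocyte genes. Among fibroblast genes, the ratio was 0.33 for the collagen gene Col1a2 (interval 0.28 to 0.38) and 0.04 for decorin, Dcn (interval -0.0009 to 0.08). Among adipocyte genes, it was 0.88 for adipsin, Cfd (interval 0.76 to 0.99), and 0.11 for Fabp4 (interval 0.05 to 0.18). With spike-in scaling Dcn and Fabp4 lay below 0, at -0.24 and -0.16. The part of these cell types in the globin ratio was not tested.

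Expressed per 1000 counts of other gene lists, the globins were higher in FLExDUX4 mice against the vessel, fiber and fibroblast lists. They were about level against the adipocyte list as a whole. Per 1000 counts of the endothelial list there were 4066 globin counts in FLExDUX4 mice and 3216 in WT mice, 1.26 times as many. Against the muscle fiber list the factor was 1.26, against Acta1 alone 1.21 and against the fibroblast list 1.08. Against the adipocyte list it was 0.99, from 3308 and 3342 globin counts per 1000. Of the 4980 and 5624 counts of that list, Cfd gave 1468 and 1144 and Fabp4 gave 2929 and 3869. The log2 ratio of Cfd, 0.88, lay above the 0.33 of the globin sum, and that of Fabp4, 0.11, lay below it. The factor of 0.99 therefore leans on Cfd and does not hold for each fat gene.

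The exogenous spike-in RNAs moved in the same direction as the globins. They took 220016 counts in FLExDUX4 mice and 259913 in WT mice, and their summed log2 ratio under TMM was 0.28. Per 1000 spike-in counts there were 74.9 globin counts in FLExDUX4 mice and 72.3 in WT mice, a factor of 1.04. With spike-in scaling the median of all genes tested was -0.28, and the ratios were -0.02 for Hba-a1, 0.05 for Hba-a2, 0.08 for Hbb-bs, 0.0008 for Hbb-bt and 0.17 for Alas2. Spike-in scaling moves every gene by this same amount. The cause of the spike-in difference, and its part in the globin ratio, was not tested.

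**Figure D4:**
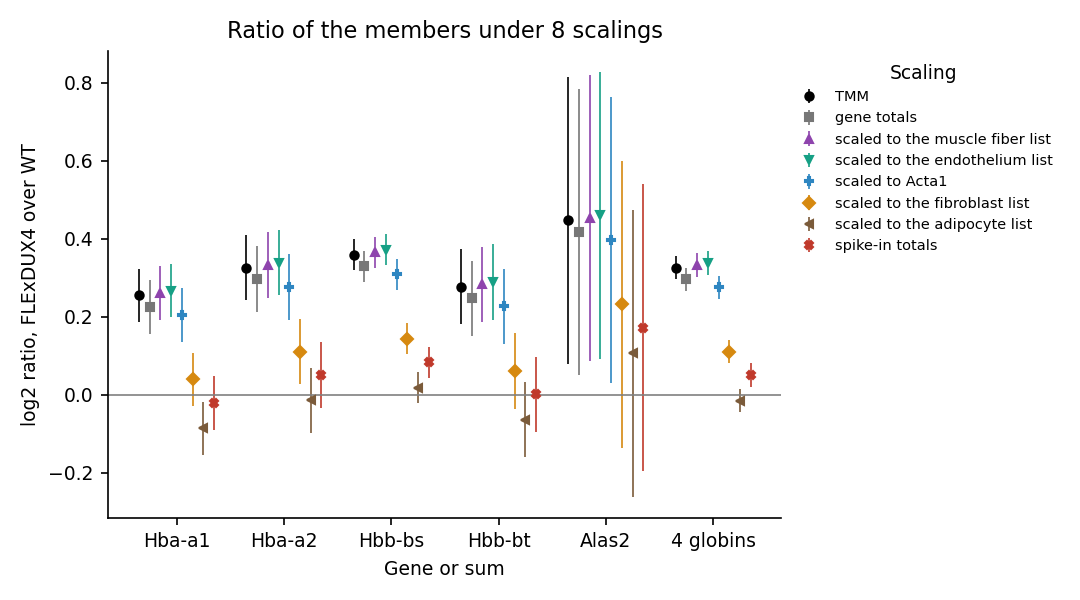
Log2 ratio of FLExDUX4 to WT (vertical axis) for each member and for the sum of the 4 globins under 8 scalings. Bars are the 95% counting interval of the gene's own counts. The sum lies between 0.28 and 0.34 under TMM, gene totals, the muscle fiber list, the endothelium list and Acta1, at 0.11 with the fibroblast list, at 0.05 with the spike-ins, where Hba-a1 lies at -0.02, and at -0.015 with the adipocyte list, where Hba-a1, Hba-a2 and Hbb-bt lie below 0.

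Among all 13396 genes tested, 20.9% had a log2 ratio at least as high as Hbb-bs, 26.6% as Hba-a1 and 17.2% as Alas2. Genes with few counts scatter widely, so the globins were also placed among the 2727 genes with at least 1000 summed counts, whose quartiles were -0.11 and 0.11. Of these, 3.89% had a ratio at least as high as Hbb-bs, 4.77% as Hba-a2, 7.19% as Hbb-bt and 8.54% as Hba-a1. A group of 99 of these genes, Hba-a2, Hbb-bs and Hbb-bt among them, lay within 0.05 of the globin sum. The 4 closest genes other than the members were 2510009E07Rik, Ppp2ca, Pik3ip1 and Cebpd, with ratios of 0.33, 0.33, 0.32 and 0.33. This likeness rests on 2 totals only.

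**Figure D5:**
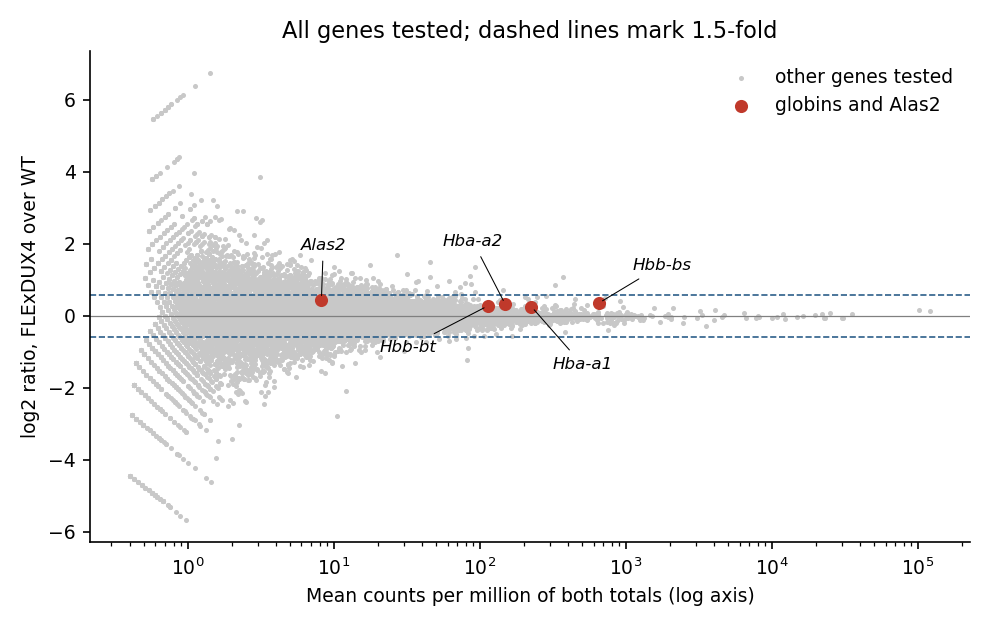
Log2 ratio of FLExDUX4 to WT (vertical axis) against the mean of both totals in CPM (horizontal axis, log scale) for all 13396 genes tested. Grey points are genes, red points the globins and Alas2, and dashed lines mark 1.5-fold. The 4 globins lie on the upper side of the band of abundant genes, between 0.25 and 0.36, and all 5 members lie inside the dashed lines.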

How the data were processed

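Total RNA of skeletal muscle was sequenced with QuantSeq 3′ mRNA-Seq (FWD). The authors trimmed reads with cutadapt 1.16 and aligned them with STAR 2.5.3a to GRCm38 joined to ERCC and SIRV spike-in sequences. The submitters' processing notes name featureCounts 1.6.2. The deposited values used are raw counts, summed by the authors over the mice of each genotype without normalization. A further 6 columns of values per sample carry names that match no sample label and were not used. The authors' own fold changes, p-values and normalized means were not used.

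Totals were scaled by the TMM method (edgeR 4.0.16 under R 4.3.3), fitted to those genes that filterByExpr retained. A pseudocount of 0.5 was added before log2 ratios. The 95% intervals (Clopper-Pearson, or exact Poisson for levels) were computed with scipy 1.17.1 in Python 3.11.15 and hold counting error alone. At most 3 counts was treated as the floor. The calculation was tested on simulated counts. The methods of the study used DESeq2, which needs values per mouse. Spike-ins were left out of gene totals. Ahsp and Flvcr1 were not analysed here, and single values of some other listed genes are not reported here.

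By rule, the genes named were the members, the 25 genes with the most counts in the globin, heme and erythroid lists, the 2 most abundant genes of each other list and the 4 genes closest to the globin sum. Other genes, among them those with few or no counts, were named after their values were seen. Members and lists were chosen with earlier results of these data known. Coordinates and transcripts are from GENCODE M21, and promoters from RefSeq, matched by symbol for all 5 members. Alternatives were other scalings, filters, pseudocounts, folds and denominators.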

Additional observations from a re-analysis of the deposited data

Results flagged for a closer look

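The spike-in RNAs, which were outside the comparison of genes, made up 1.68 counts per 100 gene counts in the FLExDUX4 total against 1.42 in the WT total. They were looked at again because this exceeds the level in the control total. Of 45 spike-ins with at least 60 counts, 39 had a log2 ratio above 0 under TMM, with a median of 0.28, beside 0.33 for the sum of the 4 globins.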

How the results depend on the processing

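No paired analysis was possible because the deposited columns used are sums over the mice of a genotype and carry no replicate number. For the same reason leaving out each replicate, DESeq2 and edgeR tests were not run. Spike-in totals and the fibroblast and adipocyte lists moved the sum of the 4 globins most and are given below. Over the other 12 alternatives the sum had log2 ratios from 0.28 to 0.34, a range set by leaving those out. Among these, scaling to Acta1 took the sum (0.275) and Hbb-bs (0.309) out of their counting intervals. Spike-in totals moved the sum to 0.0499, Hba-a1 to -0.0213, Hba-a2 to 0.0503, Hbb-bs to 0.083 and Hbb-bt to 0.00079. Scaling to the fibroblast list, which like Acta1 and the other lists was chosen after seeing the data, moved the sum to 0.11, Hba-a1 to 0.039, Hba-a2 to 0.111, Hbb-bs to 0.144 and Hbb-bt to 0.061. The adipocyte list moved the sum to -0.015, Hba-a1 to -0.0863, Hba-a2 to -0.0147, Hbb-bs to 0.0181 and Hbb-bt to -0.0642. Alas2 stayed within its interval under all alternatives. With a limit of 0.32 on the log2 scale in place of 1.5-fold, 3 members were past it, beside 22.6% of all genes tested.

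Counting spike-ins in the denominator, the globin share was 0.1236% in FLExDUX4 mice. Without the 10 genes with the most counts it was 0.223% in FLExDUX4 mice and 0.178% in WT mice. Spike-in totals shifted all 10 list medians by -0.28. For 4 lists this exceeded the typical counting error of a single gene in the list, which depends on the counts of its genes. The shift took the red cell membrane list to -0.40, endothelium to -0.26, muscle fibers to -0.31 and fibroblasts to 0.0534. The sign turned for 3, endothelium, heme disposal (-0.088) and erythroid factors (-0.22). With no filter the red cell membrane median was -0.64, since more genes with few counts enter. The muscle fiber median was -0.047 with upper quartile, -0.061 with gene totals, -0.061 without the 4 globins in the totals and -0.046 with at least 10 counts in each total.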
